A study of Mus musculus with 2 samples.

Results

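The genes described here encode enzymes of glycolysis, the chain of reactions that turns glucose into pyruvate, together with the lactate dehydrogenases that convert pyruvate and lactate into each other. The list names 10 genes by Ensembl identifier and by symbol, and its rule uses no measured value, though the list was drawn up with earlier results of these data known. Values were available for 8 of them, among 12530 mouse genes: Hk1, Aldoa, Tpi1, Eno1, Eno2, Pkm, Ldha and Ldhb. Gapdh and Pgk1, the other 2 genes of the list, were not analysed here.

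The measurements are ribosome profiling of spinal cord tissue, in which fragments of RNA shielded by ribosomes are sequenced and counted per gene. There were 2 libraries, 1 of wild-type mice (WT) and 1 of mice heterozygous for the C201R allele of Gars (GarsC201R/+), the gene of glycyl-tRNA synthetase. Each library was made from lysates of 3 animals that were pooled, so no value below has a replicate, and the spread between animals of a genotype is not known. They are called the wild-type and the C201R library below. The sources used here do not give age, sex or strain. The series was designed around ribosome occupancy at glycine codons. The tables used here hold 1 read total per gene, so the question they can address for these enzymes is how their total footprint reads compare between the libraries.

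Glycolysis yields ATP in the cytosol and supplies pyruvate to mitochondria. Its upper steps trap and split the sugar, using ATP, and its lower steps return ATP and end in pyruvate. In nervous tissue several steps have isozymes that are used to different extents by neurons and glia. Eno2 is the neuronal enolase, long used as a marker of neurons, while Eno1 is the enolase of glia and most other tissues. Ldha and Ldhb encode the subunits of lactate dehydrogenase.

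In these libraries the enzymes did not differ as a block. The C201R library held fewer footprint reads, relative to all gene reads, for the measured enzymes of the upper steps, Hk1, Aldoa and Tpi1. It held more for Eno2, Ldha and Ldhb. Eno1 and Pkm could not be told from equal levels at this depth. These statements rest on counting intervals alone, which left out equal levels for 51.9% of all genes with 100 reads or more and for 69.3% of those with 1000 or more. The grouping by steps was made after the values were seen. All differences were modest: the lowest log2 ratio of C201R over wild-type was -0.60, for Hk1, and the highest was 0.48, for Ldhb.

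The gene reads totalled 7770935 in the wild-type and 3491159 in the C201R library, so the former was 2.23 times deeper. The tables also list 18 synthetic ERCC spike-in RNAs, which made up 0.00669% of the listed reads of the wild-type and 0.650% of those of the C201R library. Ratios here are relative: they were scaled on the gene reads by TMM, described below, and not on the spike-ins. Scaling to the spike-ins would move every gene down by 1 common amount and place all 8 enzymes lower, between -7.16 and -6.08. Neither the tables nor the reference table pairs other identifiers with symbols, so markers of spinal cord cell types, other glycolytic genes and the level of Gars were not analysed here.

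The 8 genes lie on 5 chromosomes (coordinates of the RefSeq annotation, GRCm38.p6). Hk1 (ENSMUSG00000037012) spans chr10:62268855-62379920, Aldoa (ENSMUSG00000030695) chr7:126795234-126800994 and Tpi1 (ENSMUSG00000023456) chr6:124810586-124814158. Eno1 (ENSMUSG00000063524) spans chr4:150236708-150248879 and Eno2 (ENSMUSG00000004267) chr6:124760053-124769673. Pkm (ENSMUSG00000032294) spans chr9:59656576-59679372, Ldha (ENSMUSG00000063229) chr7:46842274-46855627 and Ldhb (ENSMUSG00000030246) chr6:142490249-142507957. Eno2 and Tpi1 are separated by 40912 nt. The annotated span of Tpi1 overlaps that of the protein-coding gene Spsb2 by 34 nt. Annotated long noncoding RNAs lie within the spans of Hk1 (Hk1os) and Pkm (LOC115487221), and Gm39011 meets the end of Ldha by 1 nt. Whether the authors' counting used strand is not given in the sources used here, so reads of these overlapping genes could not be told apart.

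Levels of different genes were compared as RPKM, reads per kilobase of gene length and per read total of the library, as the authors deposited it. The lengths behind it were, for example, 1304 nt for Ldhb, 1601 nt for Tpi1 and 2795 nt for Eno2. Whether they count only coding sequence, where most footprints fall, is not given in the sources used here. The order of levels below holds for these lengths, and levels per coding length were not computed. Aldoa, the aldolase of muscle and brain that splits fructose bisphosphate into triose phosphates, had the highest level of the enzymes. Its 12733 wild-type reads gave 1055 RPKM, and its 5259 C201R reads gave 964 RPKM. It ranked 25 of the 12530 genes by RPKM in the wild-type and 30 in the C201R library. Eno2 came second among the enzymes in both libraries, with 11538 reads and 530 RPKM in the wild-type and 6363 reads and 647 RPKM in the C201R library. Its rank was 71 in the former and 47 in the latter. For comparison, the median gene had 8.40 RPKM in the wild-type and 8.63 RPKM in the C201R library.

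A middle tier held Ldhb, Tpi1, Pkm and Hk1. Ldhb had 3118 wild-type reads, or 307 RPKM, and 2026 C201R reads, or 441 RPKM. Tpi1, the isomerase that interconverts the triose phosphates, had 3807 wild-type reads, or 305 RPKM, and 1194 C201R reads, or 212 RPKM. By the deposited RPKM these 2 genes stood level in the wild-type library, with a ratio of 1.01 (95% counting interval 0.959 to 1.05), but not in the C201R library. Pkm, the pyruvate kinase gene whose alternative splicing gives several enzyme forms that gene totals cannot separate, had 4142 reads and 219 RPKM in the wild-type library. In the C201R library it had 1852 reads and 216 RPKM, level with Tpi1 (ratio 1.02, 0.949 to 1.10). Hk1, the main hexokinase of the nervous system, which commits glucose to the cell by phosphorylating it, had 5124 wild-type reads, or 154 RPKM. Its 1579 C201R reads gave 105 RPKM.

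Ldha and Eno1 were far below the other enzymes. Ldha had 323 wild-type reads, or 22.8 RPKM, and 185 C201R reads, or 29.0 RPKM. Eno1 had the lowest level, with 208 wild-type reads, or 13.2 RPKM, and 112 C201R reads, or 15.7 RPKM. It ranked 4645 of all genes in the wild-type and 4138 in the C201R library. The level of Aldoa was 80.1 times that of Eno1 in the wild-type and 61.4 times in the C201R library. In the order of levels within each library, every neighbouring pair other than Ldhb with Tpi1 (wild-type) and Pkm with Tpi1 (C201R) differed beyond the counting interval.

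**Figure D1:**
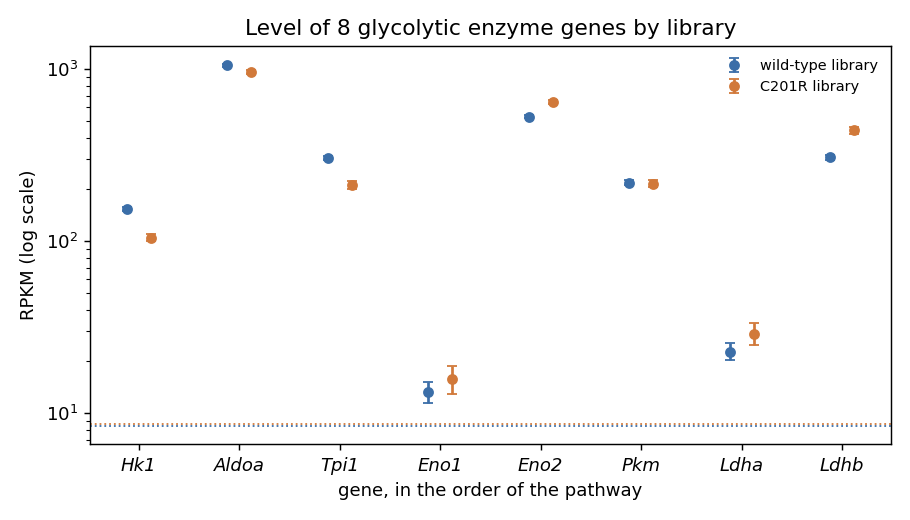
Deposited RPKM (log axis) of the 8 genes, in the order of the pathway, in the wild-type (blue) and C201R (orange) library; bars are exact 95% Poisson intervals of the reads and dotted lines mark the median gene of each library. Aldoa is highest at 1055 and 964 RPKM, and Eno1 is lowest at 13.2 and 15.7 RPKM.

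Retrocopies, copies of an mRNA inserted back into the genome, are common for glycolytic genes and can take or void reads when mapping has to be unique. RefSeq entries that carry the parent gene's name in their symbol or synonyms numbered 5 for Aldoa, 3 for Ldha, 1 for Eno1 (Eno1b) and 1 for Ldhb, and 0 for Hk1, Tpi1, Eno2 and Pkm. The genes not analysed here, Gapdh and Pgk1, had 3 each. Copies listed under other names only are not in these numbers. How the authors treated reads that map to several places is not given in the sources used here, so the levels of Aldoa, Eno1, Ldha and Ldhb are uncertain in this respect. Hk1, Tpi1, Eno2 and Pkm may also have copies under other names, which the search by name could not show. Whether copies bear on the low levels of Eno1 and Ldha was not tested.

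The ratio of the C201R over the wild-type library was taken per gene after TMM scaling, a correction of library size that assumes most genes alike. Each ratio has an exact 95% interval that covers counting error only and compares these libraries, not the genotypes. To count as higher or lower, a gene needed at least 100 reads in both libraries together, an interval that left out equal levels and a ratio of 1.5-fold or more. All 8 enzymes passed the read minimum. By this rule 1 enzyme, Hk1, was lower and 0 were higher. Among all 9726 genes with 100 reads or more, 11.2% were lower and 8.14% were higher. The spread of ratios depends on reads, so the enzymes are also set beside genes of their own read class, a division chosen after the values were seen. In the 2379 genes with 1000 reads or more, to which 6 of the enzymes belong, 6.35% were lower and 2.65% were higher. In the 7347 genes with 100 to under 1000 reads, to which Eno1 and Ldha belong, 12.7% were lower and 9.92% were higher. A single enzyme lower out of 8 is not far from these shares.

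Hk1, at the entry of the pathway, had the lowest ratio of the enzymes. It took 0.0659% of the gene reads of the wild-type library (95% Wilson interval 0.0642% to 0.0678%) and 0.0452% of those of the C201R library (0.0431% to 0.0475%). Its log2 ratio was -0.60 (-0.68 to -0.52), and it was 1.51-fold higher in the wild-type library. It thus passed the 1.5-fold limit, a log2 ratio of 0.58 in size, by a narrow margin. With total gene reads in place of TMM its log2 ratio was -0.54, and the count of lower enzymes was then 0. Among genes of its read class, 5.93% had a lower ratio.

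Tpi1 stood just inside the limit. Its share of gene reads was 0.0490% (0.0475% to 0.0506%) in the wild-type and 0.0342% (0.0323% to 0.0362%) in the C201R library. The log2 ratio was -0.57 (-0.67 to -0.48), and 6.94% of the genes of its read class were lower. Tpi1 and Hk1 did not differ beyond counting error, with a ratio between their ratios of 1.02 (0.933 to 1.11). Counting error therefore does not separate these genes, although only Hk1 was past the limit.

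Aldoa had a smaller difference in the same direction. Its share was 0.164% (0.161% to 0.167%) in the wild-type and 0.151% (0.147% to 0.155%) in the C201R library, and its log2 ratio was -0.18 (-0.22 to -0.13). This is well inside its read class, where 35.6% of genes were lower.

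Of the lower steps, the enolases had like ratios at very different levels. Eno2 took 0.148% (0.146% to 0.151%) of the wild-type and 0.182% (0.178% to 0.187%) of the C201R gene reads, a log2 ratio of 0.24 (0.20 to 0.29). Eno1 had a log2 ratio of 0.21, but with 208 and 112 reads its interval ran from -0.14 to 0.55. A difference of Eno1 in either direction was not detectable at this depth. Within genes of their own read class, 18.6% lay above Eno2 and 31.4% above Eno1.

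Pkm, which makes pyruvate, had the ratio nearest to equal levels. Its share was 0.0533% (0.0517% to 0.0549%) of the wild-type and 0.0530% (0.0507% to 0.0555%) of the C201R gene reads. Its log2 ratio was -0.061 (-0.14 to 0.019), in the middle of its read class, where 50.2% of genes were higher.

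Ldhb had the highest ratio. Ldhb took 0.0401% (0.0387% to 0.0416%) of the wild-type and 0.0580% (0.0556% to 0.0606%) of the C201R gene reads. Its log2 ratio was 0.48 (0.40 to 0.56), a 1.39-fold difference that did not reach the limit. In its read class 5.72% of genes were higher, so Ldhb was about as far up as Hk1 was down. Ldha had a log2 ratio of 0.30 (0.028 to 0.56), which left out equal levels by a small margin. It could not be told from that of Eno2 (ratio between their ratios 1.04, 0.860 to 1.25), and with the wild-type library thinned to the depth of the other it was 0.18, below the 0.25 of Eno2. By their intervals alone, with no limit on the fold, 3 enzymes were higher (Eno2, Ldha and Ldhb) and 3 lower (Hk1, Aldoa and Tpi1). By the same rule 23.7% of all genes with 100 reads or more were higher and 28.2% lower. In the class with 1000 reads or more, 29.0% were higher and 40.3% lower, so a majority of well covered genes also passed it.

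**Figure D2:**
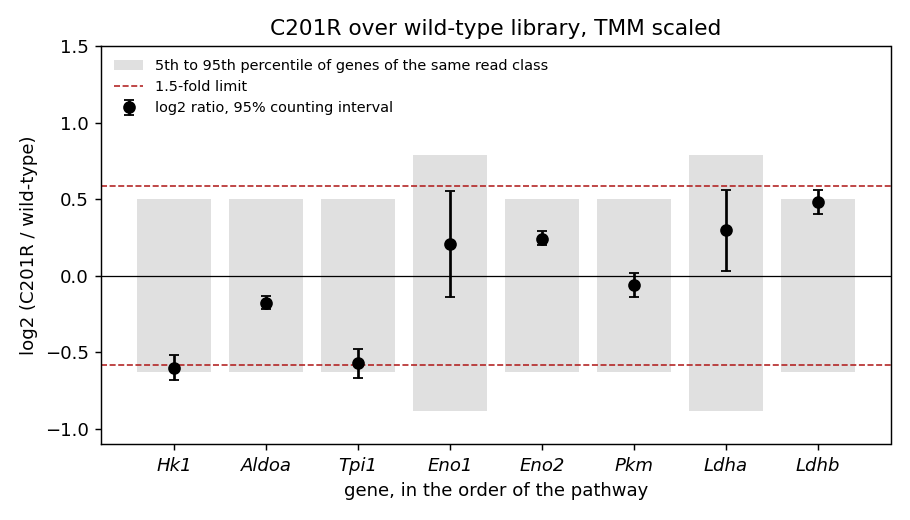
Log2 ratio of the C201R over the wild-type library for the 8 genes in the order of the pathway, after TMM scaling; points carry exact 95% counting intervals, grey boxes span the 5th to 95th percentile of genes of the same read class, and dashed lines mark 1.5-fold. Hk1, Aldoa and Tpi1 lie below 0, Eno2, Ldha and Ldhb above it, and all 8 points fall within the grey boxes.

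In the order of the pathway, the 3 measured enzymes of the upper steps lay between -0.60 and -0.18, and the 5 from enolase onwards between -0.061 and 0.48. This division was made after the values were seen, and no test was run on it. Over all 8 enzymes the summed reads differed little. Together they held 40993 reads, or 0.528% of the gene reads (0.522% to 0.533%), in the wild-type library. In the C201R library they held 18570 reads, or 0.532% (0.524% to 0.540%). After TMM scaling the log2 ratio of the sums was -0.042 (-0.067 to -0.017), so the direction of this small difference depends on the scaling. The median log2 ratio of the 8 was 0.073, beside -0.034 over all genes with 100 reads or more, -0.059 over the genes with 1000 or more and -0.023 over those with fewer. The SD of the 8 ratios was 0.40. Their robust SD (scaled median absolute deviation) was 0.35, beside 0.34 in the class with 1000 reads or more and 0.48 in the class below. The robust spread of the enzymes was thus close to that of other well covered genes. Fewer cells of a type, less RNA per cell and fewer ribosomes per RNA cannot be told apart in bulk footprint totals without an RNA library.

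**Figure D3:**
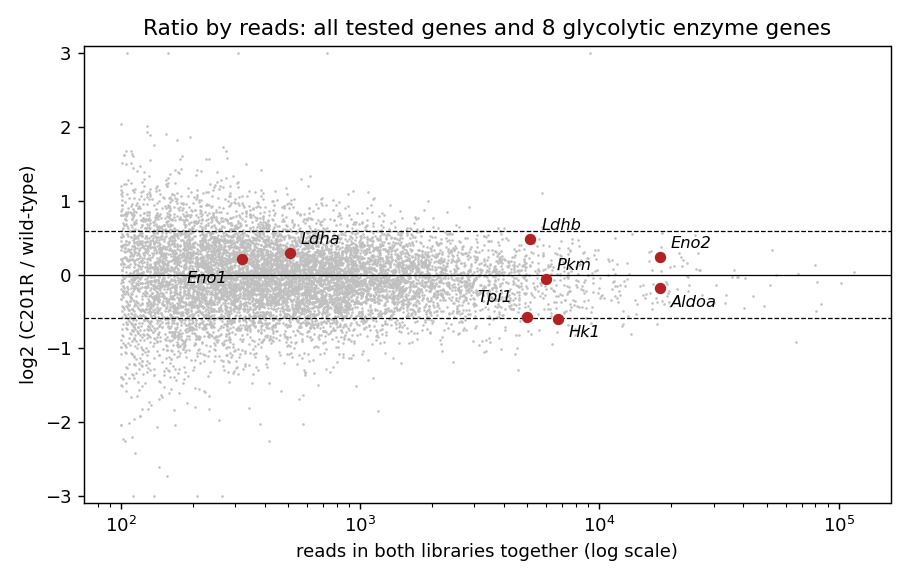
Log2 ratio of the C201R over the wild-type library against reads in both libraries together (log axis) for 9726 genes (grey), with the 8 glycolytic genes in red and dashed lines at 1.5-fold; 9 genes beyond 3 in size are drawn near the edge. The red points lie inside the grey cloud, with Ldhb near its upper side and Hk1 and Tpi1 near its lower side.

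Ratios between genes of the same library need no scaling. They restate the log2 ratios above from the same counts, so their order was fixed and is no further support. Ldhb and Hk1 were paired as the highest and the lowest. The ratio of Ldhb to Hk1 reads was 2.11-fold higher in the C201R library (95% counting interval 1.95 to 2.28), and that of Ldhb to Tpi1 was 2.07-fold higher (1.90 to 2.26). Eno2 and Tpi1, which are close neighbours on chromosome 6, differed by 1.76-fold in the same direction (1.64 to 1.89). Eno2 and Aldoa, with similar numbers of wild-type reads, differed by 1.34-fold (1.28 to 1.40). Going down the order from Ldhb through Ldha, Eno2, Eno1 and Pkm, each gene could not be told from the next at this depth. More distant pairs could be, such as Ldhb and Eno2 at 1.18-fold (1.10 to 1.26) and Eno2 and Pkm at 1.23-fold (1.16 to 1.31). Between Pkm and Aldoa the difference was 1.08-fold (1.02 to 1.15), and between Aldoa and Tpi1 it was 1.32-fold (1.22 to 1.42). In all 17 pairs were compared, and the intervals were not adjusted for their number.

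No difference in isozyme balance was detectable at this depth. Eno1 made up 2.43% of the summed RPKM of Eno1 and Eno2 in the wild-type (95% interval 2.12% to 2.77%) and 2.37% in the C201R library (1.97% to 2.84%). Eno2 was 40.2 times Eno1 per length in the former and 41.2 times in the latter. The ratio of Eno1 to Eno2 reads in the C201R library was 0.976 times that in the wild-type library (0.767 to 1.24). Ldha made up 6.93% (6.22% to 7.70%) of the summed RPKM of Ldha and Ldhb in the wild-type and 6.16% (5.34% to 7.08%) in the C201R library. The ratio of Ldha to Ldhb reads in the C201R library was 0.881 times that in the wild-type library (0.725 to 1.07). Both shares rest on the low counts of Eno1 and Ldha, whose named copies are given above.

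The make-up of the set restates the ratios above as shares, without intervals. The robust spread of those ratios was close to that of other well covered genes, as given above. Aldoa held 40.5% of the summed RPKM of the 8 genes in the wild-type and 36.7% in the C201R library. Eno2 held 20.3% in the wild-type and 24.6% in the C201R library, and Ldhb held 11.8% and 16.8% in the same order. Tpi1 held 11.7% in the wild-type against 8.05% in the C201R library, and Hk1 held 5.90% against 3.99%. Pkm held 8.39% and 8.22%. Eno1, at 0.506% and 0.597%, and Ldha, at 0.877% and 1.10%, were small in both.

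**Figure D4:**
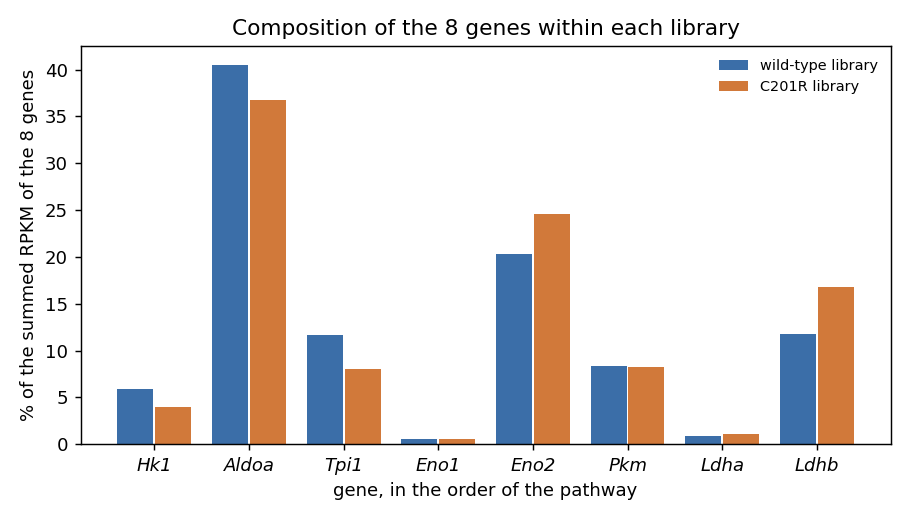
Share of each gene in the summed RPKM of the 8 genes (bars from 0, in %) in the wild-type (blue) and C201R (orange) library, without replicates. Aldoa, Tpi1 and Hk1 hold less in the C201R library, and Eno2 and Ldhb hold more.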

How the data were processed

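Per the labels' protocols, ribosome-protected fragments were made with RNase I from spinal cord lysates pooled over 3 animals per genotype. The submitters' processing notes name Bowtie 1.2.2, HTSeq 0.9.1 and the build GRCm38. Settings and annotation: not given in the sources used here. For every gene the authors deposited its reads, a raw count, beside its RPKM, per the file headers. Reads divided by RPKM gave whole gene lengths (within 1e-04 nt) with totals of 7790126 and 3520348 reads.

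The counts were scaled by TMM in edgeR 4.0.16 (R 4.3.3) over 12530 genes, without the spike-ins. Log2 ratios used a prior count of 0.5 in proportion to library size, and Clopper-Pearson intervals at 95%. Ratios between 2 genes have exact conditional odds-ratio intervals. Isozyme intervals are Wilson intervals of the read shares converted by gene length. Reads may not be independent molecules, and all intervals cover counting error only. With 1 library per genotype no p-value was computed. The rule for calls was checked only on data simulated with counting error alone and scaled by total reads. That check does not cover the spread between animals or libraries, nor TMM scaling. DESeq2 1.42.0 gave alternative size factors. Other steps ran in Python 3.11.15 (pandas 2.3.3, scipy 1.17.1, numpy 2.4.6, matplotlib 3.10.9).

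Members and lists were chosen with earlier results of these data known. All members with values are named. Planned lists of other pathway genes and cell type markers, and protein glycine content, were not analysed here, because the reference table of 49997 genes pairs 0 with an Ensembl identifier and no protein table was used.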

Additional observations from a re-analysis of the deposited data

Results flagged for a closer look

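The ERCC spike-ins, which lie outside the comparison of the enzymes, made up 0.650% of the listed reads of the C201R library, with 22857 reads, and 0.00669% of those of the wild-type library, with 520 reads. They were left out of the scaling and of the ratios of the enzymes. Why their share differed between the libraries was not tested.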

How the results depend on the processing

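The directions of all 8 enzymes were the same under total-read, DESeq2 and upper-quartile scaling, TMM without the enzymes, a prior count of 5, thinning of the wild-type reads and the library totals behind the deposited RPKM (added after the data were seen). Their median log2 ratio lay between 0.07 and 0.13. The sizes depended on the scaling by more than some counting intervals. Under total gene reads Aldoa was -0.12 and Eno2 0.30, just outside their TMM intervals of -0.22 to -0.13 and 0.20 to 0.29. The other 6 enzymes stayed inside theirs. Pkm lay between -0.062 and -0.0069. The counting intervals of Pkm and Eno1 after TMM scaling held 0, so the directions of these genes are not settled. The count of lower enzymes fell from 1 to 0 under total-read and upper-quartile scaling, the RPKM totals and thinning. In these settings Hk1 lay between -0.56 and -0.53, just short of the 1.5-fold limit, beside -0.60 in the main setting. The count was also 0 with a 2-fold limit, which no enzyme reached. With no fold limit 3 enzymes were higher and 3 lower, those whose intervals left out equal levels. Spike-in scaling, added likewise, gave 8 lower and a median of -6.48, by 1 common shift of every gene. Shares of reads instead of RPKM, which leave out gene length, put Eno1 at 1.77% of Eno1 and Eno2 in the wild-type and 1.73% in the C201R library, and Ldha at 9.39% and 8.37% of the lactate dehydrogenases. Depth limits Eno1 and Ldha most: thinning, a single random draw, gave 0.18 for Ldha. No paired analysis was possible because each genotype has 1 library, and no replicate could be left out. The alternative planned for other pathway lists was not run.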
